A study of Mus musculus with 13 samples.

Results

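The T-MPAL library holds the T-lymphoid fraction of a mixed-phenotype acute leukaemia (MPAL) of mice with retroviral N-Myc, and it was set against the empty control library. Single nucleotide variants (SNVs) and small insertions and deletions (INDELs) were kept when they lay on chromosomes 1 to 19 outside segmental duplications and had a quality score of at least 100. The depth had to reach 10 reads, of which 4 or more and a share of 0.2 or more carried the alternative allele, and the control had to have no call of the same alleles. This left 1932 of 9244 SNVs that passed the thresholds in T-MPAL (20.9%) and 5080 of 12020 INDELs (42.3%). Over all 7 libraries, 21601 distinct SNVs and 49683 distinct INDELs passed the same thresholds. All 379 copy number rows of T-MPAL on these chromosomes were included, of 1514 rows in the 6 libraries with a whole copy number table.

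The series sequenced the genomes of GFP+ bone marrow cells of C57BL/6 mice, labelled 8 to 10 weeks, with 1 library per group. T-MPAL is the GFP+ fraction that bore CD3/4/8 and lacked Mac1/Gr1 and B220. M-MPAL is the GFP+ fraction that bore Mac1/Gr1 and lacked B220 and CD3/4/8. The empty control was GFP+ cells of empty control mice, with no further marker in its label, and what its construct held is not stated there. Each of these 3 libraries came from 1000000 cells, and the labels give neither the number of mice nor a link between the fractions and single mice. T-ALL, AML, B-ALL and AUL, the other 4 leukaemia libraries, are used here only to see whether they carry the same calls. No matched normal DNA is named for any animal, so inherited and acquired variants cannot be told apart. DNA holds no level of CD3, CD4 or CD8, so the sort could not be checked against its own markers. None of the 6 genes that encode them (Cd3d, Cd3e, Cd3g, Cd4, Cd8a and Cd8b1) lay in a copy number row.

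MPAL is a leukaemia whose blasts carry markers of more than 1 blood lineage. N-Myc, encoded by Mycn, is a transcription factor of the Myc family that drives growth and cell division. Developing T cells cut and join the gene segments of their antigen receptor loci (V, D and J segments), and the DNA between the joined segments is lost from the chromosome. Such deletions are a mark of the lymphoid lineage that is written in the genome.

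Most INDELs changed the length of short repeats. The INDELs in exons or splice sites that lay in repeats are shown to make this visible, together with the INDEL in Parvb, which encodes an actin-binding adhesion protein. That one was picked after its values were seen, as the intronic INDEL on chromosome 15 with the most alternative reads that no other library had. Sequences run 5′ to 3′ on the forward strand of mm10 as deposited, and capitals mark the bases deleted from the reference or inserted in the alternative.
D6Ertd527e reference: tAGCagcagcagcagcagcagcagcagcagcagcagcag
D6Ertd527e alternative: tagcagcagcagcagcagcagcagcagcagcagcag
Tbc1d22a reference: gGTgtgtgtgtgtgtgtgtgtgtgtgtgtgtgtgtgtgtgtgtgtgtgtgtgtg
Tbc1d22a alternative: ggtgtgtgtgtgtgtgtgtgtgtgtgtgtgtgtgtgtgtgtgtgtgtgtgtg
Rgp1 reference: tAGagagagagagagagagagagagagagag
Rgp1 alternative: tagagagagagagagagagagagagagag
Parvb reference: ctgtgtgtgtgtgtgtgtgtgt
Parvb alternative: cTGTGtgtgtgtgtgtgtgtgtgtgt
The in-frame deletion in exon 2 of D6Ertd527e (chr6:87111939-87111977) had 5 of 25 reads in T-MPAL (20.0%, 95% interval 6.83 to 40.7), which is the lowest share the rule admits. The deletion at a splice site of Tbc1d22a (chr15:86299775-86299828), which encodes a protein with a Rab GTPase-activating domain, had 9 of 20 reads. Rgp1 (chr4:43580026-43580056), a partner in the activation of Rab6 at the Golgi, had its splice-site deletion on 9 of 16 reads in T-MPAL and 8 of 24 in M-MPAL, and all 5 other leukaemia libraries had the call. The 4-base insertion in Parvb (chr15:84246535-84246556) had 27 of 32 reads in T-MPAL (84.4%, 67.2 to 94.7).

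RefSeq promoter windows (build GRCm38.p6) run from 250 bases before to 50 bases after a listed start of a gene, and a gene can have several. Of 1932 SNVs, 9 lay in such a window, and 3 INDELs did. The 3 genes shown are those with an SNV outside repeats and dbSNP whose names do not begin with Gm or end in Rik. Sequences run 5′ to 3′ on the strand of the gene, the capital marks the changed base, and positions count from 1 at the 5′ end of the printed stretch.
Fez2: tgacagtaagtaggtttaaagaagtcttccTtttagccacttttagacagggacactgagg
Ldlrad3: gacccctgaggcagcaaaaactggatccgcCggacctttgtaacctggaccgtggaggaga
Cbfa2t3: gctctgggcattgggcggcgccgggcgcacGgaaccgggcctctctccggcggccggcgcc
Fez2 (chr17:78418308-78418368, reverse strand), whose product takes part in axon growth, had T31C on 15 of 30 reads in T-MPAL, and no other library had the call. Ldlrad3 (chr2:102186498-102186558, reverse strand), a relative of the LDL receptor, had C31G on 18 of 31 reads. Cbfa2t3 (chr8:122678278-122678338, reverse strand), a transcriptional corepressor of blood cells, had G31A on 9 of 21 reads (42.9%, 21.8 to 66.0). The deposited annotation places this SNV in an intron. The calls in Ldlrad3 and Cbfa2t3 were found in M-MPAL and in no other library. Neither the expression of these genes nor the binding of any factor was measured here.

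T-MPAL carried more SNVs that the control lacked than the control carried that T-MPAL lacked. The 1932 SNVs of T-MPAL (95% interval 1847 to 2020) stood against 709 of the empty control by the same rule turned round (658 to 763), a ratio of 2.72. The ratio moved with the quality minimum, to 1.56 with none and to 4.58 at a quality of at least 200. The share of passing SNVs that the other library lacked was 20.9% in T-MPAL and 9.12% in the control. All 19 chromosomes had more such SNVs in T-MPAL than in the control. Without chromosome 15 the counts were 1811 in T-MPAL and 689 in the control. These intervals count calls and leave out every other source of error, and with 1 library per group no difference has a replicate check.

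The INDEL counts lay closer together, and their ratio depended on the thresholds. T-MPAL had 5080 (4941 to 5222) and the control 4735 (4601 to 4872), or 42.3% and 40.2% of the INDELs that passed, a ratio of 1.07. The ratio was 2.98 at a quality of at least 200 and 2.63 outside annotated repeats, and it fell below 1, to 0.827, at a depth of at least 20 and to 0.882 with no quality minimum. Without chromosome 15 the counts were 4615 (4483 to 4750) in T-MPAL, against 4575 (4443 to 4710) in the empty control, and these intervals overlap. On chromosome 15 itself there were 465 in T-MPAL and 160 in the control. The median depth of these INDELs on chromosome 15 was 23 reads in T-MPAL, against 15 to 18 reads on its other chromosomes, and its part in the count was not tested.

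**Figure D1:**
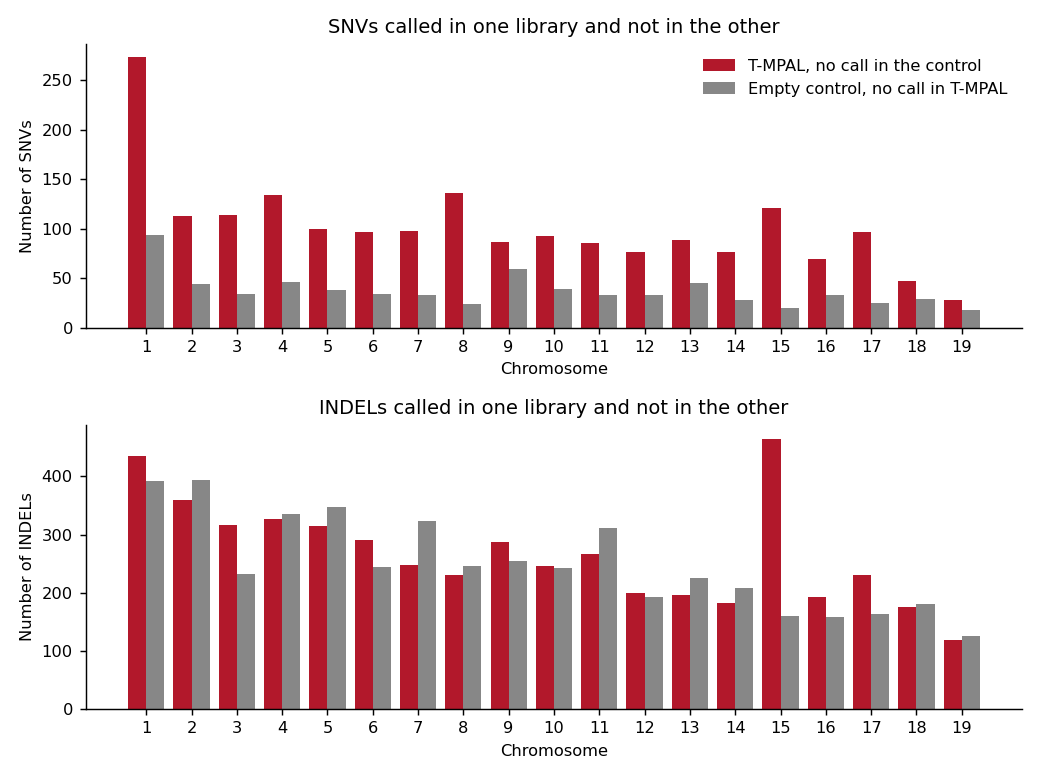
Number of SNVs (top) and INDELs (bottom) per chromosome that passed the thresholds in T-MPAL with no call in the empty control (red) and in the empty control with no call in T-MPAL (grey). The SNV bars of T-MPAL are higher on every chromosome, while the INDEL bars stand clearly apart on chromosome 15, with 465 in T-MPAL and 160 in the control.

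The control files list calls, not depths at sites without a call, so a missing call may be a site with few reads. Just inside the quality threshold, from 100 to below 120, there were 260 SNVs and 1684 INDELs. Just outside it, from 80 to below 100, another 281 SNVs and 3538 INDELs met the other conditions. At the same position as a T-MPAL INDEL the control had another INDEL allele in 904 of 5080 cases. For SNVs this was so in 3 of 1932 cases.

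Of the 1932 SNVs, 61.1% were intergenic, 30.9% intronic and 2.07% exonic, close to the 61.8%, 29.6% and 1.41% of the 709 control SNVs. Annotated repeats held 52.3% (50.02 to 54.5) of the T-MPAL SNVs and 58.1% (54.4 to 61.8) of the control SNVs. The dbSNP catalogue of known variants listed 30.8% (28.8 to 33.0) of the T-MPAL SNVs and 41.9% (38.2 to 45.6) of the control SNVs, and these intervals do not overlap. Among the INDELs, repeats held 96.6% in T-MPAL and 98.6% in the control, and 4246 of the 5080 T-MPAL INDELs (83.6%) lay in simple repeats.

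The INDELs of T-MPAL were more often insertions than those of the control. Insertions were 2104 of 5080 in T-MPAL (41.4%, 40.1 to 42.8) and 1253 of 4735 in the control (26.5%, 25.2 to 27.7). A length change of 2 bases, as in the Tbc1d22a and Rgp1 repeats printed above, made up 57.5% (56.2 to 58.9) in T-MPAL, against 71.5% (70.2 to 72.8) in the empty control. A change of 4 bases, as in Parvb, made up 25.3% in T-MPAL and 14.97% in the control. The alternative allele had at least 0.9 of the reads at 23.3% (22.2 to 24.5) of the INDELs of T-MPAL and at 13.6% (12.7 to 14.7) of those of the control.

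The other 5 leukaemia libraries, which the rule did not use, split the SNVs into clear sets. A call in these libraries was counted at any depth and quality. No other library had the call for 661 SNVs (34.2%, 32.1 to 36.4), and 538 (27.8%, 25.9 to 29.9) were found in M-MPAL alone of the other 5. All 5 others had 318 (16.5%), so that the control was the single library without the call. Another 277 were in M-MPAL and 1 to 3 more, and 138 were in other libraries but not in M-MPAL. In all, M-MPAL had 1133 of the 1932 SNVs (58.6%, 56.4 to 60.9), against 542 to 584 in each of T-ALL, AML, B-ALL and AUL. Among the 709 control SNVs, 11 were in M-MPAL alone of the other 5 (1.55%, 0.777 to 2.76). All 5 others had 128 of the control SNVs (18.1%, 15.3 to 21.1), an interval that overlaps that of T-MPAL (14.8 to 18.2). No other library had 193 of the control SNVs (27.2%, 24.0 to 30.7), a lower share than in T-MPAL. M-MPAL had 227 of the control SNVs in all (32.0%, 28.6 to 35.6), against 340 to 371 in each of T-ALL, AML, B-ALL and AUL.

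These sets differed in what they held. The dbSNP catalogue listed 10.6% of the SNVs in no other library, 13.2% of those in M-MPAL alone and 75.2% of those in all 5. The median alternative read share was 0.471 (0.462 to 0.480) in the first set, 0.517 (0.5 to 0.524) in the second and 0.646 (0.588 to 0.785) in the last. In the last set 40.9% of the SNVs had a share of at least 0.9, against 3.33% in the first and 6.51% in the second.

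INDELs followed M-MPAL less closely. No other library had 1630 of the 5080 INDELs (32.1%, 30.8 to 33.4), M-MPAL alone had 747 (14.7%, 13.7 to 15.7), and all 5 had 415 (8.17%). M-MPAL had 2111 in all (41.6%, 40.2 to 42.9), against 1361 to 1417 in each of the other 4 leukaemia libraries. Of the 4735 control INDELs, a like share was in no other library (1536, 32.4%, 31.1 to 33.8). M-MPAL alone had 236 of the control INDELs (4.98%, 4.38 to 5.64), and all 5 had 168 (3.55%). M-MPAL had 1163 of the control INDELs in all (24.6%, 23.3 to 25.8), against 1350 to 1489 in each of the other 4. The 415 INDELs that the control alone lacked had a median share of 1.00, and 83.1% of them had a share of at least 0.9.

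The base changes of the SNVs were led by C>T, counted with the pyrimidine of the pair first. C>T made up 709 of 1932 in T-MPAL (36.7%, 34.5 to 38.9) and 254 of 709 in the control (35.8%, 32.3 to 39.5), which overlap. Within T-MPAL the sets stood apart. C>T made up 47.4% (43.1 to 51.7) of the SNVs found in M-MPAL alone, against 32.4% (28.8 to 36.1) of those in no other library. T>C ran the other way, with 14.7% (11.8 to 17.96) in the set shared with M-MPAL alone and 28.7% (25.3 to 32.4) in the set of no other library. C>G was the rarest of the 6 classes in T-MPAL (5.33%) and in the control (7.48%).

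**Figure D2:**
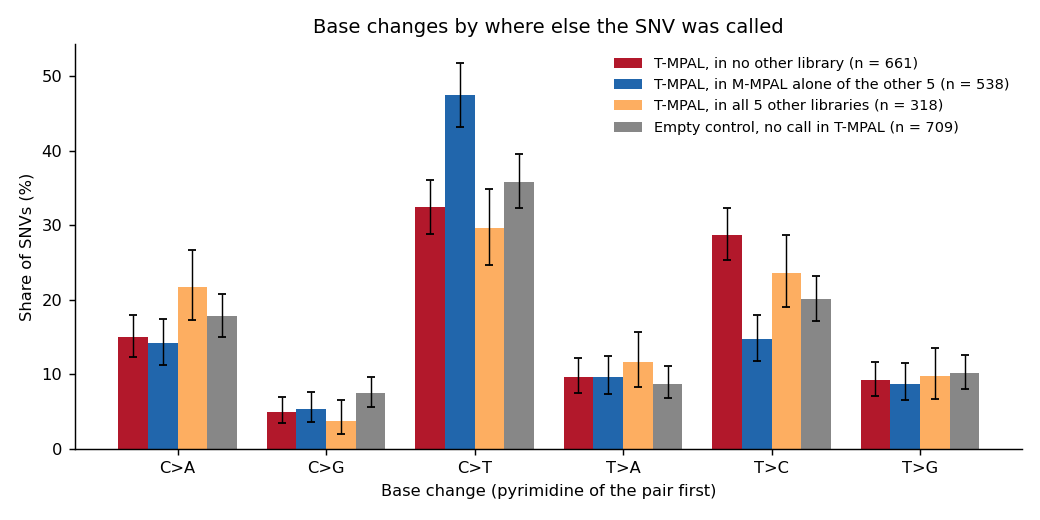
Share of each base change class (%) among T-MPAL SNVs in no other library (red), in M-MPAL alone of the other 5 (blue) and in all 5 other libraries (orange), and among the 709 control SNVs (grey), with exact 95% intervals. C>T reaches 47.4% in the set shared with M-MPAL alone and 32.4% in the set of no other library, while T>C stands at 14.7% and 28.7%.

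Chromosome 15 was gained from end to end in T-MPAL. Its 204 copy number rows were all gains, ran from base 3170001 to base 103895000 and held 100.6 Mb, or 99.8% of that span. At 3 copies were 197 rows with 100.4 Mb, at 4 copies 5 rows and at 7 copies 2 rows, where 2 copies are normal. The longest stretch between rows was 50 kb. The control had 5 gains on chromosome 15 with 0.232 Mb. M-MPAL, the other fraction, had gains over at least 50% of the length of 202 of the 204 rows, and T-ALL, AML and B-ALL over 3 each.

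The read depth at variants called in both libraries, which the rule did not use but which comes from the same reads as the copy number rows, singled out the same chromosome. T-MPAL depth over control depth was taken at each such site outside segmental duplications and scaled to a median of 1 over chromosomes 1 to 19. On chromosome 15 it was 1.68 at 594 SNVs (1.62 to 1.74) and 1.45 at INDELs (1.41 to 1.5), while the other 18 chromosomes lay between 0.884 and 1.11 at SNVs and between 0.929 and 1.08 at INDELs. Outside repeats the SNV value on chromosome 15 was 1.98. The median depth of the T-MPAL SNVs absent from the control was 40 reads on chromosome 15 and 22 to 28 reads on the others.

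**Figure D3:**
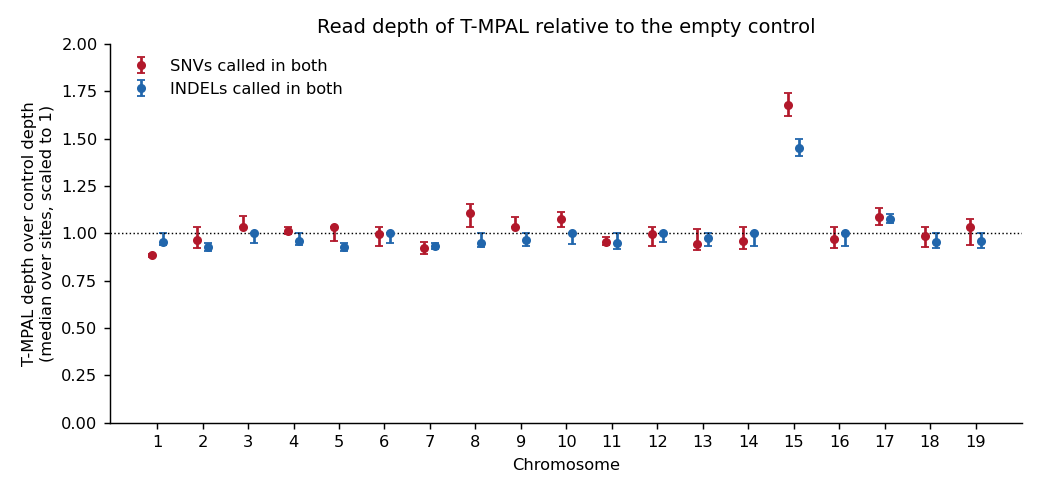
Median ratio of T-MPAL depth to control depth per chromosome at SNVs (red) and INDELs (blue) called in both libraries, scaled to 1 over chromosomes 1 to 19 (dotted line), with 95% order-statistic intervals of the median. Chromosome 15 stands at 1.68 for SNVs and 1.45 for INDELs, above all other chromosomes.

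Of 20665 protein-coding genes, 876 (4.24%) had at least 50% of their span in a gain of T-MPAL. They included 773 of the 776 genes of chromosome 15 and 93 of the 1059 genes of chromosome 17. The gain on chromosome 15 held Myc (61985341 to 61990361), the relative of Mycn, and Il7r, the interleukin 7 receptor gene of early lymphocytes. It also held Rad21, a subunit of cohesin, Ep300, an acetyltransferase gene, Kmt2d, a histone methyltransferase gene, and Xrcc6, which encodes a subunit of the Ku DNA end-binding complex. Ly6g, whose product is part of the Gr1 antigen that the sort excluded, lay there with its neighbours Ly6c1 and Ly6c2. By list, 1 of 34 T-ALL genes, 3 of 27 AML and mixed-phenotype genes, 1 of 17 Myc network genes, 1 of 31 p53 and DNA repair genes and 3 of 11 myeloid lineage genes lay in a gain. None of the 19 T lineage, 10 B lineage and 9 MHC and antigen presentation genes did. In the control, none of these list genes lay in a gain or a loss.

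The alternative read shares on chromosome 15 differed from those elsewhere. The 121 SNVs there had a median share of 0.385 (0.371 to 0.429), against medians of 0.467 to 0.568 on the 15 chromosomes other than 15, 17, 18 and 19. Of the 26 that no other library had, 19 lay under 0.4, 3 from 0.4 to below 0.6 and 4 from 0.6 to below 0.9. On those 15 chromosomes, 26.6% of the 580 SNVs of the same set lay under 0.4. The 25 SNVs found in M-MPAL alone spread to both sides, with 7 under 0.4, 7 from 0.4 to below 0.6 and 11 from 0.6 to below 0.9. Their median share reached 0.556 in T-MPAL, against 0.417 in M-MPAL.

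On chromosomes 18 and 19 nearly all reads at many SNVs carried the alternative allele, at a depth like that of other chromosomes. On chromosome 18 the median share of the 47 SNVs was 1.00, and 35 of them (74.5%) had a share of at least 0.9. On chromosome 19 the median of the 28 SNVs was 0.958 (0.510 to 1.00), and 16 (57.1%) had such a share. On the 15 chromosomes above this fraction was 6.58% to 18%. The depth ratio to the control was 0.984 (0.928 to 1.03) on chromosome 18 and 1.03 (0.938 to 1.08) on chromosome 19, and neither had a gain or loss over 13 kb.

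The pattern was clearest in the SNVs shared with M-MPAL alone. On chromosome 18, 13 of 15 had a share of at least 0.9 in T-MPAL and none in M-MPAL, where the median was 0.519. On chromosome 19, 6 of 6 had it in T-MPAL and 1 in M-MPAL, where the median was 0.532. On the 15 other chromosomes 15 of 464 such SNVs had it in T-MPAL and 15 in M-MPAL. Of the SNVs that no other library had, 13 of 18 on chromosome 18 and 4 of 11 on chromosome 19 had a share of at least 0.9, against 5 of 580 on the 15 chromosomes.

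Taking these 2 sets together, the 26 SNVs of chromosome 18 with such a share ran from base 4452949 to base 87690650 and had a median depth of 22 reads, and in 21 of them every read was alternative. The 10 of chromosome 19 ran from base 3681557 to base 60098344 with a median depth of 24 reads. INDELs gave the same 2 chromosomes, with median shares of 0.769 (0.579 to 0.909) on chromosome 18 and 0.821 (0.583 to 0.957) on chromosome 19, against 0.5 to 0.575 on the 15 others. The control SNVs absent from T-MPAL had medians of 0.474 on chromosome 18 and 0.503 on chromosome 19.

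SNVs called in both libraries with at least 20 reads in each had medians near those of the control. Where the control share lay from 0.3 to 0.7, the T-MPAL median was 0.4 over 31 sites on chromosome 18 (control 0.4) and 0.481 over 13 sites on chromosome 19 (control 0.523). Over all 2892 such sites the median was 0.451 in T-MPAL, against 0.453 in the control. A T-MPAL share of at least 0.9 was found at 3 of the 31 sites on chromosome 18 and 1 of the 13 on chromosome 19, against 30 of the 2892 sites over all chromosomes.

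**Figure D4:**
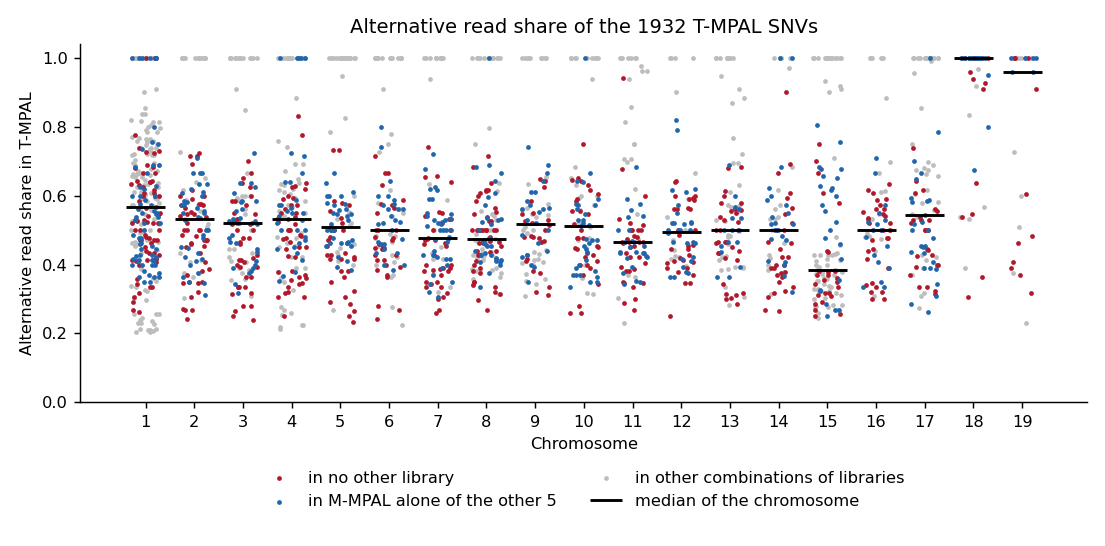
Alternative read share in T-MPAL of each of its 1932 SNVs absent from the control, by chromosome, coloured by where else the SNV was called (red, in no other library; blue, in M-MPAL alone of the other 5; grey, other combinations), with the median of each chromosome as a black bar. The medians stand at 0.385 on chromosome 15, 1.00 on chromosome 18 and 0.958 on chromosome 19, and between 0.467 and 0.568 on all others, chromosome 17 included.

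Chromosome 17 held most of the remaining gained sequence. T-MPAL had 51 gains there with 7.18 Mb, and the control had 19 with 0.195 Mb. The 5 longest gains of T-MPAL outside chromosome 15 were all on it and all at 3 copies, at 18056001 to 19170000 (1114 kb, 10 protein-coding genes), 79740001 to 80766000 (1026 kb, 13 genes) and 28392001 to 29191000 (799 kb, 19 genes). The other two were at 74100001 to 74844000 (744 kb, 8 genes) and 19272001 to 19898000 (626 kb), which held the vomeronasal receptor genes Vmn2r99 to Vmn2r103. Of the 51 gains, 7 were covered over at least 50% of their length by gains of M-MPAL and 6 by gains of the control.

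The depth on chromosome 17 at sites inside the gains overlapped that outside them. At SNVs called in both libraries it was 1.24 (1.06 to 1.68) times the control at 36 sites inside the gains to 3 copies, and 1.16 (1.10 to 1.21) at 352 sites outside all gains. At INDELs it was 1.08 (0.941 to 1.19) inside and 1.08 (1.05 to 1.11) outside. Over the whole chromosome, with sites in gains above 3 copies included, the ratio was 1.09 at 518 SNVs and 1.08 at 965 INDELs. On the 15 chromosomes other than 15, 17, 18 and 19 it was 0.884 to 1.11 at SNVs and 0.929 to 1.00 at INDELs. The whole-chromosome value at INDELs and the 1.16 at SNVs outside all gains lay above these ranges. The 97 SNVs of chromosome 17 absent from the control had a median share of 0.543 (0.5 to 0.594).

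Outside chromosomes 15 and 17 T-MPAL had fewer gains than the control. T-MPAL had 101 gains with 1.15 Mb and the control 179 with 3.39 Mb. Of the 101 in T-MPAL, 59 were covered over at least 50% of their length by a gain of the control and 73 by one of M-MPAL.

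**Figure D5:**
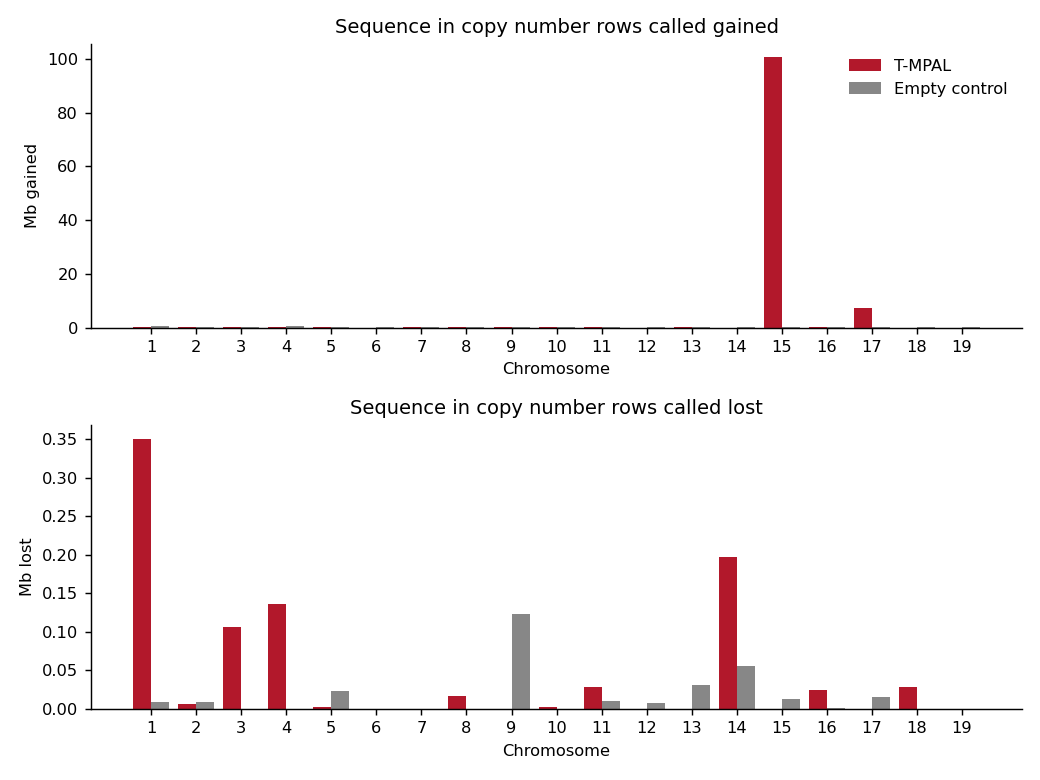
Sequence in copy number rows called gained (top) and lost (bottom), in Mb per chromosome, in T-MPAL (red) and the empty control (grey). Chromosome 15 holds 100.6 Mb and chromosome 17 holds 7.18 Mb of the gains of T-MPAL, and its losses sum to 0.897 Mb over 23 rows.

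T-MPAL had 1 loss to 0 copies, and it lay in the T-cell receptor locus Tra/Trd. The control had 9 losses to 0 copies outside chromosome 15, none of them in this locus. The loss of T-MPAL took 161 kb of chromosome 14, from 53962001 to 54123000. In the RefSeq table its start lay 399 bases after the end of Trdv2-2, a variable segment of the delta chain, and its end 138 bases before Trdj1, a joining segment of the delta chain. Copy number rows come in steps of 1000 bases, so both distances are within a step. Inside it were Trdv4, both diversity segments Trdd1 and Trdd2, and the pseudogene segments Trav23 and Trdv3. Trdj2 and the constant segment Trdc lay beyond its end, 13779 and 19851 bases away.

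No copy number row of M-MPAL, T-ALL, AML, B-ALL or the empty control touched these 161 kb. T-MPAL had no SNV or INDEL call of any quality inside them, against 1 in M-MPAL and 3 in the empty control, with 0 in T-ALL, 9 in AML, 9 in B-ALL and 5 in AUL. In the stretch of the same length before it, T-MPAL had 4 calls and the control 4, and in the one after it T-MPAL had 5 and the control 6. In the RefSeq table, the other 5 antigen receptor loci (Trb, Trg, Igh, Igk and Igl) had no gain or loss in T-MPAL or in the control. The 1796 kb of Tra/Trd hold 202 segments in the table, of which 5 lay in the loss.

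The other losses of T-MPAL were at 1 copy. The 4 longest of them took 251 kb of chromosome 1 (146160001 to 146411000), 112 kb of chromosome 4 (69071001 to 69183000) and 96 kb of chromosome 1 (77257001 to 77353000), none with a protein-coding gene. The shortest of the 4 took 92 kb of chromosome 3 (151749001 to 151841000) with Ifi44 and Ifi44l, which interferon induces, and Ptgfr, the receptor of prostaglandin F. In it T-MPAL had 1 variant call and the control 5. In the longer ones, in the order given, T-MPAL had 7, 7 and 4 calls and the control 5, 4 and 5. No loss of T-MPAL was covered over at least 50% of its length by a loss of the control or of M-MPAL. Only 8 variants called in both libraries lay in the losses to 1 copy, with a depth ratio of 1.14 (0.656 to 1.68). The median depth at these 8 sites was thus not lowered, and the reason was not tested.

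Mycn itself carried 3 SNVs of T-MPAL, all synonymous and all listed in dbSNP. At position 12937225 of chromosome 12 (T>C, Q390Q in exon 3) the alternative allele had 28 of 57 reads in T-MPAL (49.1%, 35.6 to 62.7) and 8 of 37 in M-MPAL (21.6%). At position 12937474 (G>A, G307G in exon 3) it had 12 of 33 reads in T-MPAL (36.4%, 20.4 to 54.9) and 8 of 33 in M-MPAL (24.2%). At position 12940022 (G>A, R124R in exon 2) it had 28 of 60 reads in T-MPAL (46.7%, 33.7 to 60) and 13 of 39 in M-MPAL (33.3%). All 3 shares were higher in T-MPAL than in M-MPAL, though the intervals overlap at each site. The M-MPAL calls at 12937225 and 12937474 had qualities of 85 and 63, below the minimum of 100 set for T-MPAL.

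The empty control, T-ALL, AML, B-ALL and AUL had 0 SNV calls in Mycn. The next SNV of T-MPAL was 138 kb away, and no INDEL or copy number row lay in the gene (12936093 to 12941836). The median depth of the 76 T-MPAL SNVs on chromosome 12 was 23.5 reads, and 4 of them had more than 50 reads, of which the sites at 12937225 and 12940022 were 2. The labels speak of retroviral N-Myc, and reads of the gene on chromosome 12 and of a retroviral copy cannot be told apart in these tables.

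Variants counted here as protein-altering, which are missense SNVs and INDELs in exons or at splice sites, lay in 23 protein-coding genes. Whether the splice-site INDELs in Tbc1d22a and Rgp1 change splicing was not measured. T-MPAL had 27 protein-altering variants absent from the control (17.8 to 39.3), 23 missense SNVs and 4 INDELs, against 7 in the control (2.81 to 14.4) by the rule turned round. At a quality of at least 200, 4 of the 27 remained, V140M in Mroh2a, D147N in Gcsam, R32K in Ttpa and I628T in Vmn2r109, so the other variants named here rest on lower quality scores. Synonymous SNVs numbered 15 in T-MPAL and 4 in the control. Of the 27, 10 were in no other library, 7 in M-MPAL alone of the other 5, and 3 in all 5. M-MPAL had 15 of the 27 and 0 of the 7 control variants. None lay in a gene of the lists counted further on. Over all 20665 protein-coding genes 23 held such a variant, so lists of 9 to 34 genes are too short for this absence to tell anything about them.

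The variants that no other library had were spread over genes of unlike roles. Cd180, which encodes a B-cell surface protein related to the Toll-like receptors, had S163Y on 12 of 26 reads (46.2%, 26.6 to 66.6). Acd, which encodes the TPP1 subunit of the shelterin complex at telomeres, had G222D on 8 of 25 reads (32.0%, 14.9 to 53.5). Tulp3, a carrier of proteins into the cilium, had L21P on 10 of 27 reads, and Dnajc17, a co-chaperone, R287C on 9 of 26 reads. Nox4, an NADPH oxidase, had H123N on 8 of 31 reads (25.8%, 11.9 to 44.6), and Ces2a, a carboxylesterase, had A494T on 8 of 27 reads. L3mbtl4, a gene of the MBT domain family on chromosome 17, had R6W on 8 of 20 reads (40.0%, 19.1 to 63.9). Rbp4, the carrier of retinol in blood, had the frameshift G25fs in exon 1 (position 38124993 of chromosome 19) on 8 of 17 reads (47.1%, 23.0 to 72.2). This deletion is also among the 3 INDELs in promoter windows, at -182 from a RefSeq start of Rbp4, so its effect depends on the transcript. The SNVs of chromosome 19 found in no other library had a median share of 0.484, and 4 of 11 had a share of at least 0.9. The intervals are wide at these depths, and that of Nox4 is the one among the 8 named here that does not reach 50%.

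The 7 variants shared with M-MPAL alone are given with the reads of both fractions. R32K in Ttpa, the transfer protein of vitamin E, had 15 of 28 reads in T-MPAL and 13 of 24 in M-MPAL. Csmd1, a large membrane protein that regulates complement, carried 2 such variants, D742Y on 10 of 21 reads in T-MPAL and 16 of 27 in M-MPAL, and P3183S on 9 of 22 and 7 of 16. R125H in Neu3, a sialidase of the cell membrane, had 10 of 16 reads in T-MPAL and 10 of 21 in M-MPAL. G226D in Pdhx, which anchors the E3 enzyme of the pyruvate dehydrogenase complex, had 8 of 14 reads in T-MPAL and 14 of 26 in M-MPAL. S106R in Atg5, which is needed to form autophagosomes, had 8 of 21 reads in T-MPAL and 7 of 19 in M-MPAL. I628T in the vomeronasal receptor gene Vmn2r109, named after its values were seen, had 22 of 28 reads in T-MPAL and 15 of 26 in M-MPAL.

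Gcsam, a signalling adaptor of germinal centre B cells, had D147N on 20 of 30 reads in T-MPAL and 12 of 28 in M-MPAL. Hmgb2, a chromatin protein that bends DNA, had P175S on 13 of 26 and 15 of 31. Both were called in AML and B-ALL as well, and A1665T in the muscle gene Cmya5 (12 of 25 and 16 of 25) in T-ALL and AUL. None of these 3 is listed in dbSNP.

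Another 6 of the 27 lay in 99 kb of chromosome 1 (88212001 to 88311000) that was called at 11 to 13 copies in T-MPAL and at 12 in the control. They were V140M, S750L, T1363M and P1373L in Mroh2a, Y232F in Ugt1a1, the enzyme that conjugates bilirubin, and P667L in Hjurp, the chaperone of the centromeric histone CENP-A. Their depths were 89 to 143 reads, and each was also called in 2 or more of the other leukaemia libraries. The stretch held 112 of the 273 SNVs of chromosome 1, with a median depth of 107 reads, and 39 of the control SNVs, with a median depth of 141. Of the 112, 104 are listed in dbSNP. Reads of several copies of this stretch cannot be told apart, so its shares are not those of a 2-copy gene.

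The gene lists were counted for any variant in the span of a gene, most of which are intronic. Of all 20665 protein-coding genes 1841 (8.91%) held a T-MPAL SNV or INDEL absent from the control, and 514 (2.49%) held an SNV. Of the 34 T-ALL genes 6 held either kind and 1 an SNV, which was Dnm2, the gene of dynamin 2. Of the 27 AML and mixed-phenotype genes 4 held either kind and 2 an SNV (Kmt2c and Smc3). Of the 17 Myc network genes Mycn alone held one, 3 of the 31 p53 and DNA repair genes held INDELs only, and 3 of the 19 T lineage and 3 of the 10 B lineage genes held 1 variant each. Ptprc, on the B lineage list as the gene of B220, was 1 of the latter. The 11 myeloid lineage and 9 MHC and antigen presentation genes held none. Gene length was not matched, and its part in these counts was not tested.

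The list genes with an SNV other than Mycn are named here after their values were seen, and all 6 of these SNVs are intronic. Cd8b1, which encodes a chain of CD8, had 14 of 30 reads at position 71328374 of chromosome 6, and Ebf1, a master transcription factor of B cells, had 19 of 33 at position 44820189 of chromosome 11. Kmt2c, a histone methyltransferase gene, had 13 of 24 reads. These 3 were in M-MPAL alone of the other 5 libraries. Dnm2 had 13 of 25 reads and was in M-MPAL and others. The SNVs in Smc3, a cohesin subunit on chromosome 19, had 14 of 14 and 10 of 10 reads, are listed in dbSNP and were in all 5 other libraries. The INDEL in Cd4, which encodes the CD4 receptor, removed 4 bases of an intronic repeat on 10 of 17 reads.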

How the data were processed

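Whole-genome libraries had fragments of 350 bp read as pairs of 150 bp with 30x planned, per the labels' protocols. The submitters' processing notes list BWA, without a version, and the build mm10. SNVs and INDELs came from samtools and copy number rows from FREEC, with ANNOVAR annotation, per the file names and headers. The deposited variant quality is a Phred-scaled score, and the sample column gives the depth and the alternative reads. No source used here gives caller versions, filters or FREEC settings. Not used were 6 samples on integration sites and the AUL copy number table, which ends in the middle of a line.

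Members were matched by chromosome, position and alleles. At variants called in both libraries the median depth at SNVs was 28 reads in T-MPAL and 25 in the control, and at INDELs it was 17 in each. Taken site by site before scaling, the median ratio of T-MPAL depth to control depth at these SNVs was 0.970. Counts carry exact Poisson intervals, shares exact Clopper-Pearson intervals and medians order-statistic intervals, all at 95%; these cover counting error only, because reads carry no molecular identifiers and are not independent molecules. With 1 library per group no test was made. All 42 exonic members lay inside their gene's span in the RefSeq table (GRCm38.p6), which was therefore used with these coordinates. Row starts were shifted by 1 base so that positions count from 1. The members and gene lists were chosen with earlier results of these data known.

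Named genes are those with a protein-altering SNV or an exonic or splicing INDEL, except olfactory, vomeronasal, Zfp, Gm and Rik genes. Added to these are list genes in copy number rows, the antigen receptor loci, Mycn and Myc, the 5 longest gains and losses and rows at 0 copies. Protein changes are those of the transcript with the farthest position. Alternatives changed the depth, quality and share minimums, repeats, segmental duplications, dbSNP variants, clusters, nearby calls, the other libraries, chromosomes, and the length and joining of rows. Intervals came from scipy 1.17.1 and figures from matplotlib 3.10.9, with pandas 2.3.3 and numpy 2.4.6 under Python 3.11.15, and the member search was tested on simulated data.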

Additional observations from a re-analysis of the deposited data

Results flagged for a closer look

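The X chromosome lies outside the comparison above. By the same thresholds it held 158 SNVs in T-MPAL with no call in the control (95% interval 134 to 185), against 23 in the empty control with no call in T-MPAL (14.6 to 34.5). It drew attention because this signal lies outside the chromosomes compared and exceeds the control. The median alternative read share was 0.481 in T-MPAL and 0.516 in the control, and 16 of the 158 had a share of at least 0.9. INDELs there numbered 198 (171 to 227.6) in T-MPAL, against 152 (129 to 178) in the empty control. No label states the sex of the animals, and its part in these counts was not tested.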

How the results depend on the processing

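No paired analysis was possible because each group has 1 library. Of 120 values under alternatives, 78 stayed within the limits set for them. Unless stated, the cause of a move was not tested. SNVs of T-MPAL numbered 3760 with no quality minimum, 765 at a quality of at least 200, 922 outside repeats, 3092 with segmental duplications and 661 without calls in the other 5 libraries, since each of these settings admits or removes calls. INDELs numbered 39802, 1152 and 171 under the first 3 of these and 1630 under the last, and 1740 at a depth of at least 20. SNVs per control SNV, 2.72 as reported, were 1.56 with no quality minimum and 4.58 at a quality of at least 200, so T-MPAL stayed above the control. The INDEL ratio of 1.07 turned to 0.827 at a depth of at least 20 and to 0.882 with no quality minimum, and was 2.98 at a quality of at least 200 and 2.63 outside repeats. When no control INDEL at the same position was allowed, a choice made after seeing the data, it was 1.08 with 4176 INDELs. Protein-altering variants were 4 at a quality of at least 200 and 10 without calls in the other 5 libraries. The C>T share, 36.7%, was 39.96% at a depth of at least 20, 34.4% with no quality minimum, 39.8% outside repeats, 39.4% without dbSNP variants and 32.4% in no other library. The median alternative read share of 0.513 was 0.485 at a depth of at least 20, 0.4 with no quality minimum, 0.483 without dbSNP variants and 0.471 in no other library. In that last set it was 0.358 on chromosome 15 and 0.484 on chromosome 19, which rests on 11 SNVs. The depth ratio on chromosome 15 was 1.45 at INDELs and 1.98 outside repeats. On chromosomes 18 and 19 it lay near 1 and changed side, at 1.01 outside repeats on chromosome 18, and at 0.960 at INDELs and 0.958 outside repeats on chromosome 19. Copy number gains, 356 as reported, were 212 at 10 kb or longer, 112 at 100 kb or longer, 78 with rows less than 100 kb apart joined, and 152 with 8.33 Mb without chromosome 15. Losses were 12 at 10 kb or longer and 3 with 0.524 Mb at 100 kb or longer. A missing control call at low depth limits every count.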
